A study of Homo sapiens with 6 samples.

Results

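The Golgi and vesicle transport genes described here are 38 genes chosen by name from a count table of 28514 gene symbols, and all 38 were found in it. They are 6 subunits of the COPI coat, 10 genes for the COPII coat and its SAR1 GTPases, 3 genes for ARF GTPases and their exchange factor, 11 golgins and other Golgi structure genes, and the 8 subunits of the COG complex. Messenger RNA was sequenced from CI-huVEC, an immortalised human umbilical vein endothelial cell line. The wild-type group held 3 libraries (WT 1, WT 2 and WT 4). The knockout group, CCM3 -/-, held 3 clonal lines (K17, K18 and K19) edited by CRISPR/Cas9 in exon 3 of CCM3, the gene also called PDCD10. All 6 samples were at passage 31 and share the clone label HKO, which no source used here explains. Each knockout library is 1 clone; for the wild-type libraries no label states separate clones. The loss of CCM3 and other differences between the clones and the wild-type lines therefore cannot be told apart, and the p-values reflect spread among these 6 samples alone, some of which may be technical.

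Secretory and membrane proteins leave the endoplasmic reticulum (ER) in vesicles coated by COPII, which the GTPase SAR1 recruits. They then enter the Golgi apparatus. The COPI coat, recruited by ARF GTPases, carries proteins back from the Golgi to the ER and between Golgi cisternae. Golgins are long coiled-coil proteins that tether vesicles and, with the GRASP proteins, hold the Golgi stacks together, while the COG complex tethers COPI vesicles that recycle Golgi enzymes. CCM3 binds the GCKIII kinases STK24, STK25 and MST4 (now STK26), and STK25 and MST4 are known to bind the golgin GM130, the product of GOLGA2.

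The libraries held 28280417 to 32919491 counts. The 7 endothelial markers PECAM1, CDH5, KDR, TEK, TIE1, VWF and ERG summed to 2265 to 2337 CPM (the count scaled to a common library total) in the wild type and 3752 to 4066 CPM in the clones, with 5 called higher and 0 lower. Markers of other cells were also measured. Smooth muscle and pericyte markers, of which 3 of 6 were tested, with 1 called higher and 1 lower, summed to 299 to 314 CPM in wild-type cells and 20.5 to 32.8 CPM in the clones. Of 5 epithelial markers 3 were tested and 2 called higher, of 4 leukocyte markers 1 was tested and called higher, and of 5 fibroblast markers 1 was tested and not called. In wild-type cells and in the clones the sums were 242 to 261 and 349 to 625 CPM for epithelial markers, 20.1 to 24.2 and 36.9 to 41.7 CPM for leukocyte markers, and 2.92 to 3.32 and 0.579 to 7.19 CPM for fibroblast markers. The epithelial marker CDH1 was at 0 counts in all 6 libraries and the fibroblast marker LUM at no more than 3. The part of these differences in the results below was not tested, and fewer cells of a type and less RNA per cell cannot be told apart. PDCD10 itself measured 60.5, 60.7 and 61.6 CPM in wild-type cells against 42.3, 31.6 and 37.6 CPM in the clones. STK24 was at 167 to 173 CPM in wild-type cells and 178 to 188 CPM in the clones, STK25 at 183 to 206 and 229.9 to 411 CPM, and MST4 at 16.8 to 17.6 and 0.102 to 0.242 CPM.

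Of the 38 genes, 17 fell in the knockout clones, 1 rose and 20 were not called. A gene was called when the edgeR quasi-likelihood test on the counts gave a Benjamini-Hochberg adjusted p below 0.05 over all 14548 tested genes. Over all tested genes 38.7% were called, 20.8% lower and 18% higher, against 44.7% lower and 2.63% higher among the 38. Among the 7900 tested genes at least as abundant as the least abundant of the 38, the shares were 23.6% lower and 18.8% higher. The median log2 fold change, knockout over wild type, was -0.15 for the 38 genes and 0.00 for all tested genes. The genes called lower had fallen by between 14.3% (COG5) and 38% (SEC24A). In 22 of the 38 genes every clone lay below every wild-type library and in 4 every clone lay above, while in the other 12 the groups overlapped. Over all tested genes the groups did not overlap in 55.5%, with 31.0% below and 24.5% above. The least abundant of the 38 still had 559 counts in its lowest library, so all passed the filter on low counts.

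The count of genes called lower rested on the number of libraries and on the clone K17, as it did over all tested genes. It was 8 without WT 1, without WT 2 or without WT 4, and 9 without K18 or without K19. Over all tested genes the count called lower was 3025 with all libraries, and 1650 to 1868 with 1 wild-type library left out. That count was 2278 without K18 and 2337 without K19. Without K17, 23 of the 38 genes were called lower and 6 higher. Over all tested genes 4491 were called lower and 4776 higher in that fit. These were 9267 of 14814 genes, against 5637 of 14548 with all libraries. A call gained without K17, here and below, was therefore common over all tested genes. The calls that held with any 1 library left out, and under every other setting tried that keeps the threshold of 0.05, were those of SEC24A, SEC24D, SEC23A, COPA, ARF4, GOLIM4, COG3 and COG6, all lower, and COG4, higher.

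**Figure D1:**
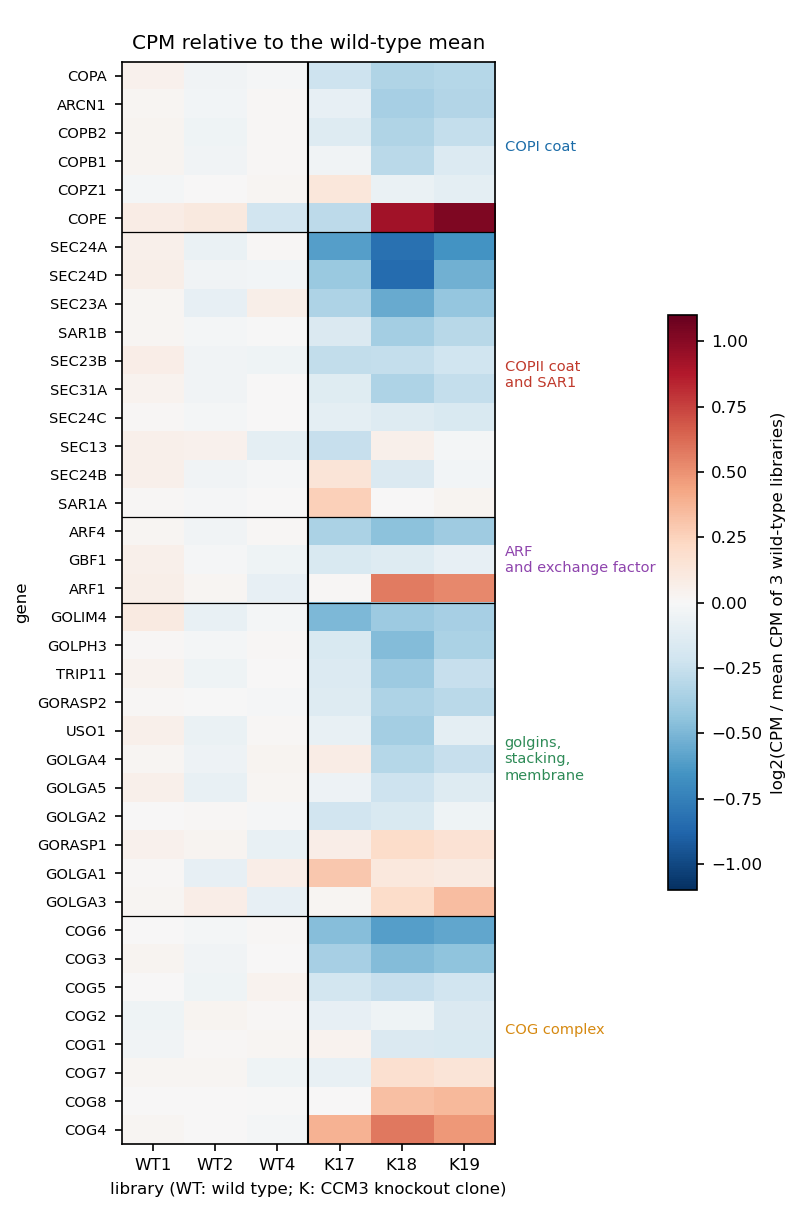
Heat map of the 38 genes (rows, by role) in the 6 libraries (columns). Colour is the log2 ratio of CPM to the mean CPM of the 3 wild-type libraries. Blue rows dominate in K17, K18 and K19 for coat, ARF4 and COG3/COG6 genes, COG4 is red in all 3 clones, and COPE and ARF1 are red in K18 and K19 and not in K17.

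The start regions of these genes shared short sequence motifs. RefSeq promoter windows of the assembly GRCh38.p14, from 250 bases before to 50 bases after a transcription start, were matched by symbol for 33 of the 38 genes, all but COG7, GOLGA4, SEC24D, ARF4 and USO1. The motif TGACGT, the core of the cAMP response element bound by factors of the CREB and ATF families, was found on either strand in 17 of 33 (51.5%). It occurred in 9.64% of all 27305 genes with such a window, in 14% of the 9882 tested genes matched by symbol and in 16.3% of 135 other genes of the early secretory pathway. The motif ACGTGGC, known from the Golgi stress response in which the factor TFE3 acts, was found in 14 of 33 (42.4%), against 3.95%, 5.71% and 17%. The CCAAT box, searched as CCAAT, was found in 39.4%, against 39.7% of all genes with a window, 43.3% of tested genes and 45.9% of the other pathway genes. Among genes called lower, 6 of 15 held TGACGT and 7 of 15 held ACGTGGC, and among the others 11 of 18 and 7 of 18. A match is a description of the letters in a window and not a bound site.

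In 5 genes both motifs overlapped in the string TGACGTGGC. It occurred in 15.2% of the 33 genes and in 3.70% of 135 other genes of the early secretory pathway. Its share was 0.337% of all genes with a window and 0.577% of tested genes with a window. These stretches are shown because they hold both motifs at once, in SEC24A and SEC23A, which fell, and in ARF1, GOLGA1 and GOLGA5, which were not called. Capitals mark TGACGT and ACGTGGC on either strand, each stretch is written 5′ to 3′ on the gene's own strand, and the GOLGA5 motif lies on the opposite strand.
SEC24A, chr5:134648586-134648634, plus strand: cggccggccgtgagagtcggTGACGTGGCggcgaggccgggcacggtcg
SEC23A, chr14:39103216-39103259, minus strand: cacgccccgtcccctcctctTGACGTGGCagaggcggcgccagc
ARF1, chr1:228082672-228082720, plus strand: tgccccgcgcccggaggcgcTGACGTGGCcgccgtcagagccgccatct
GOLGA1, chr9:124941238-124941286, minus strand: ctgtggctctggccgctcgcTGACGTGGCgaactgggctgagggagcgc
GOLGA5, chr14:92794105-92794153, plus strand: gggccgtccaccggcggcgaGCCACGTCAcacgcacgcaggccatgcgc
The motif began 179 bases before the start of SEC24A, 183 before that of GOLGA1 and 180 before that of GOLGA5, but only 16 before that of ARF1 and 4 before that of SEC23A, where it ran across the start. The counts were made on another build (hg19), so no coordinate here comes from the expression files.

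The COPII coat held the largest decreases. Of its 10 genes 6 fell, 0 rose and 4 were not called, with a median log2 fold change of -0.25. SEC24A and SEC24D belong to the 4 SEC24 proteins that select cargo, and SEC24A carries the TGACGTGGC string shown above. SEC24A measured 93.2, 85.4 and 90.3 CPM in wild-type cells (WT 1, WT 2, WT 4) against 58.9, 50.9 and 56.98 CPM in the clones (K17, K18, K19). Every clone lay below every wild-type library, and the gene fell by 0.69 log2 units (SE 0.08, adjusted p = 0.00109). SEC24D measured 187, 175 and 176 CPM in wild-type cells and 135, 99.8 and 125 CPM in the clones. Its groups were also apart, with K18 lowest, and it fell by 0.58 (SE 0.11, adjusted p = 0.00922). The other SEC24 genes were not called. SEC24B was at 86.7, 81.3 and 82.8 CPM in wild-type cells and 92.1, 74.7 and 82.0 CPM in the clones, so that the groups overlapped (log2 fold change -0.01, SE 0.09, adjusted p = 0.924). SEC24C was at 226, 221 and 225 CPM and at 208, 203 and 199 CPM. Its groups were apart, yet a difference of -0.14 did not pass (adjusted p = 0.0532), and it was called without K17 (-0.15, adjusted p = 0.0152).

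SEC23A and SEC23B code for the inner-coat partner of SEC24, which stimulates the GTPase activity of SAR1. SEC23A measured 248, 230.2 and 256 CPM in wild-type cells and 194, 167 and 183 CPM in the clones, with no overlap. It fell by 0.44 log2 units (SE 0.07, adjusted p = 0.00554). SEC23B measured 98.9, 91.5 and 91.0 CPM and then 77.9, 78.2 and 80.4 CPM, a fall of 0.25 (SE 0.06, adjusted p = 0.0162). The call of SEC23B ended without WT 1, WT 2 or WT 4, at adjusted p = 0.0548 to 0.0837. SEC31A, a subunit of the outer cage, was the most abundant COPII transcript per length (75.4 ± 1.23 FPKM in the wild type, SD, n = 3). It measured 461, 439 and 450.0 CPM in wild-type cells and 410.0, 356 and 375 CPM in the clones, and fell by 0.24 (SE 0.06, adjusted p = 0.0261). Its partner SEC13, which is also part of the nuclear pore, was at 211, 211 and 189 CPM and at 171, 211 and 199.96 CPM. Here K17 lay lowest, the groups overlapped, and the difference of -0.07 was not called (adjusted p = 0.575).

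The SAR1 GTPases start coat assembly, and SAR1B fell while SAR1A was not called. SAR1B measured 73.7, 71.5 and 72.4 CPM in wild-type cells and 64.9, 56.1 and 58.5 CPM in the clones, and fell by 0.28 (SE 0.07, adjusted p = 0.0232). SAR1A was at 169.8, 167 and 169 CPM in wild-type cells and 202, 169 and 173 CPM in the clones. K17 was the highest of the clones, and the difference of 0.11 was not called (adjusted p = 0.306). The calls of SAR1B and SEC31A ended when any 1 library other than K17 was left out, at adjusted p = 0.0742 to 0.0957 for SAR1B and 0.0698 to 0.104 for SEC31A. SEC24A and SAR1B have exons that overlap on opposite strands in GENCODE 29. Since the strand setting of the counting is not given, reads in the shared part may have been counted for either gene. The same doubt holds for other called genes with an opposite-strand overlap, namely COPA, COPB2, COG3, COG5, SEC23A, SEC31A and ARF4. Exons that overlap another gene on the same strand leave counts uncertain under any strand setting. Such overlaps were listed for the called gene SEC31A and, among genes not called, for COPB1, COPE, GOLGA1, GOLGA3, COG1, COG8 and ARF1. SAR1A has 4 pseudogenes by name in RefSeq, SEC24A has 1 and SEC13 has 1, so that reads shared with a copy are uncertain for these genes.

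**Figure D2:**
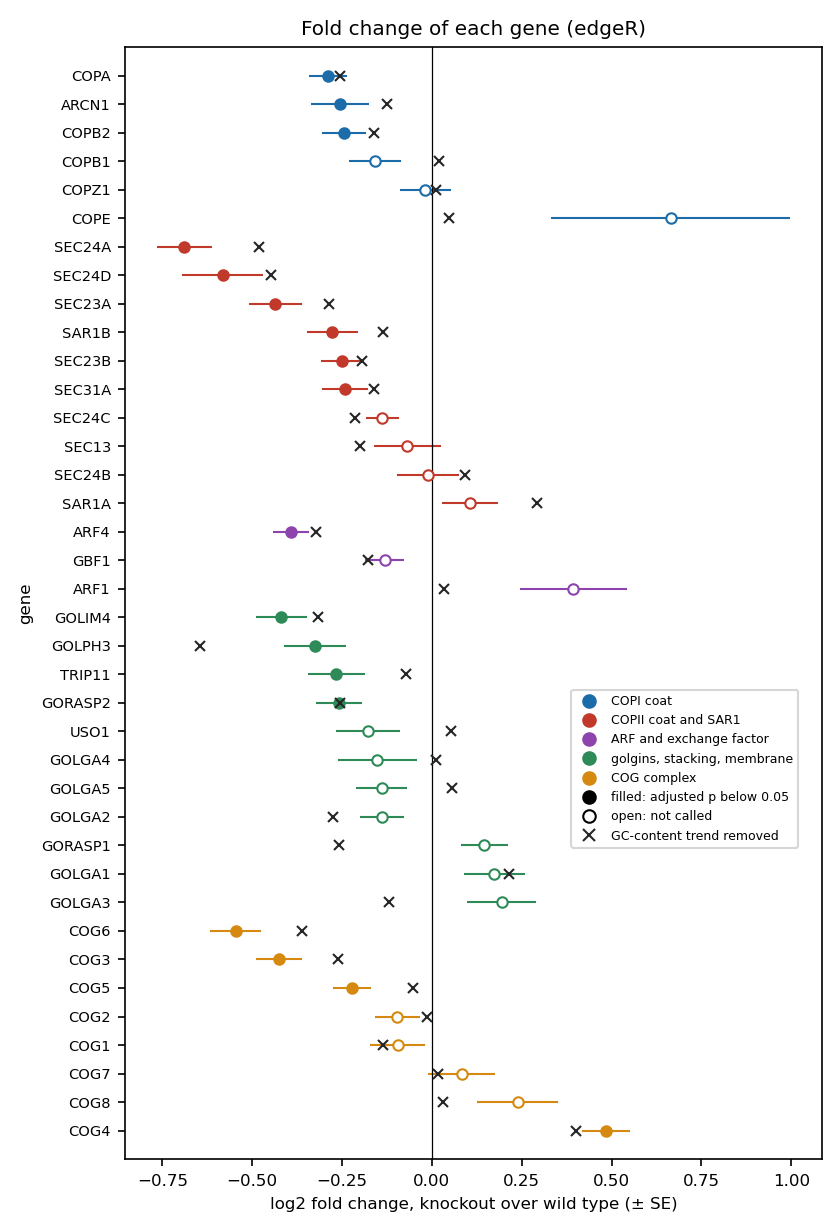
Log2 fold change of the 38 genes, knockout over wild type, with bars of 1 SE from the edgeR fit of 3 against 3 libraries, coloured by role. Filled points passed an adjusted p of 0.05, and crosses give the value after GC-trend removal; SEC24A at -0.69 and COG4 at 0.48 bound the called genes, while COPE at 0.66 has the widest bar.

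In the COPI coat 3 of 6 genes fell, 0 rose and 3 were not called, with a median of -0.20. COPA codes for the alpha subunit of the outer layer and measured 381, 360.2 and 367 CPM in wild-type cells and 316, 294 and 296 CPM in the clones. The groups were apart, and COPA fell by 0.29 log2 units (SE 0.05, adjusted p = 0.00669). COPB2, the beta-prime subunit that forms the outer layer with COPA, measured 334, 316 and 330.1 CPM and then 295, 259.7 and 272 CPM, a fall of 0.24 (SE 0.06, adjusted p = 0.0230). ARCN1, the delta subunit of the inner layer, measured 308, 297 and 305 CPM and then 284, 236 and 242 CPM, a fall of 0.26 (SE 0.08, adjusted p = 0.0443). In both genes K17 lay nearest to the wild type. The calls of COPB2 and ARCN1 ended when any 1 library other than K17 was left out, at adjusted p = 0.0598 to 0.0969 and 0.103 to 0.161.

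The remaining COPI subunits were not called. COPB1, the beta subunit, was at 326, 311 and 322 CPM in wild-type cells and 310.1, 261 and 288 CPM in the clones (-0.16, adjusted p = 0.124), and without K17 it was called (-0.21, adjusted p = 0.00921). COPZ1, the zeta subunit, was at 201, 204 and 207 CPM and at 222, 194 and 189 CPM (-0.02, adjusted p = 0.855). COPE, the epsilon subunit, split the clones. It was at 50.6, 51.6 and 41.4 CPM in wild-type cells, but at 39.1 CPM for K17 against 91.0 and 97.6 CPM for the other clones. With all 3 clones the difference of 0.66 had an SE of 0.33 and was not called (adjusted p = 0.155), while without K17 it was 0.98 (adjusted p = 6.4e-05). COPE had the highest GC content of the 38 genes, 62.9%, and in a fit that took the GC-content trend out of each library (GC-trend removal) its difference was 0.05 (adjusted p = 0.764).

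Of the ARF genes, ARF4 fell and ARF1 was not called. ARF4 and ARF1 code for small GTPases that recruit COPI, and GBF1 for the exchange factor that activates ARFs at the early Golgi. ARF4 measured 376, 359 and 374 CPM in wild-type cells and 291, 271 and 283 CPM in the clones. Its groups were far apart relative to their spread, and it fell by 0.39 (SE 0.05, adjusted p = 0.00189). ARF1 was at 368, 356 and 329.7 CPM in wild-type cells and at 355, 523 and 505 CPM in the clones. K17 lay within the wild-type range and K18 and K19 above it. The difference of 0.39 (SE 0.15) was not called (adjusted p = 0.0799), was 0.56 without K17 (adjusted p = 5.13e-05), and was 0.03 after GC-trend removal (adjusted p = 0.485). GBF1 was at 152, 145 and 140.5 CPM and at 129.7, 132 and 137 CPM, apart but not called (-0.13, adjusted p = 0.0952). ARF4 has 5 pseudogenes by name and ARF1 has 3, so that reads shared with copies are uncertain.

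Golgins and other structure genes held 4 decreases, 0 increases and 7 genes not called among 11. GOLIM4, a cis-Golgi membrane protein that cycles through endosomes, measured 81.6, 72.0 and 75.4 CPM in wild-type cells and 54.3, 58.0 and 59.1 CPM in the clones. It fell by 0.42 (SE 0.07, adjusted p = 0.00548), and it is the only gene of the 4 whose call held without each single library. GOLPH3, which binds phosphatidylinositol 4-phosphate and links the Golgi to the cytoskeleton, measured 91.2, 88.7 and 90.9 CPM and then 80.2, 64.7 and 71.1 CPM, a fall of 0.33 (SE 0.09, adjusted p = 0.0259). GORASP2, the stacking protein GRASP55, measured 161, 158 and 158 CPM and then 144, 125 and 129 CPM, a fall of 0.26 (SE 0.06, adjusted p = 0.0214). TRIP11, the golgin GMAP-210, measured 80.4, 75.8 and 78.2 CPM and then 70.4, 59.0 and 65.5 CPM, a fall of 0.27 (SE 0.08, adjusted p = 0.0373). In all 3 of these genes the groups were apart and K17 lay nearest to the wild type. Their calls ended without any 1 library other than K17, at adjusted p = 0.0704 to 0.0946 for GOLPH3, 0.0757 to 0.0897 for GORASP2 and 0.0878 to 0.134 for TRIP11.

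GOLGA2, which codes for GM130, was at 83.0, 83.5 and 82.0 CPM in wild-type cells and 71.6, 73.9 and 80.1 CPM in the clones. The groups were apart, but the difference of -0.14 (SE 0.06) was not called (adjusted p = 0.115). After GC-trend removal it was called, at -0.27 (adjusted p = 0.00944). RefSeq lists 9 pseudogenes of GOLGA2 by name, so its counts may be incomplete or shared. GORASP1, the stacking protein GRASP65 that binds GM130, was at 73.3, 72.2 and 66.9 CPM and at 74.7, 81.3 and 79.1 CPM, above the wild type in every clone but not called (0.15, adjusted p = 0.115). Of the others, the vesicle tether gene USO1 (p115) was at -0.18, GOLGA4 at -0.15, GOLGA5 at -0.14, GOLGA1 at 0.17 and GOLGA3 at 0.19 on the log2 scale, with adjusted p of 0.147 to 0.302. Without K17, GORASP1 (0.19, adjusted p = 0.0181) and GOLGA3 (0.28, adjusted p = 0.00651) were called higher, but after GC-trend removal both lay below 0 (-0.26 and -0.12, adjusted p = 0.231 and 0.271). Without K17, USO1 (-0.22, adjusted p = 0.0400), GOLGA4 (-0.28, adjusted p = 0.00144) and GOLGA5 (-0.18, adjusted p = 0.0304) were called lower, and after GC-trend removal these lay above 0.

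Subunits of the COG complex went in both directions. The complex is made of a lobe A, COG1 to COG4, and a lobe B, COG5 to COG8. Of 8 genes 3 fell, 1 rose and 4 were not called, with a median of -0.10. COG6 measured 35.0, 34.6 and 35.4 CPM in wild-type cells and 25.3, 23.0 and 23.5 CPM in the clones, and fell by 0.55 (SE 0.07, adjusted p = 0.00198). COG3 measured 52.6, 50.05 and 51.5 CPM and then 39.95, 36.9 and 37.9 CPM, a fall of 0.43 (SE 0.06, adjusted p = 0.00342). COG5 measured 80.9, 78.0 and 82.9 CPM and then 70.1, 67.7 and 69.5 CPM, a fall of 0.22 (SE 0.05, adjusted p = 0.0196). In each of them the clones lay close together below the wild type. The call of COG5 ended without any 1 library other than K17 (adjusted p = 0.0565 to 0.0995) and after GC-trend removal (-0.05, adjusted p = 0.354).

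COG4 was the only gene of the 38 called higher by the test that set the calls above. It measured 58.6, 58.1 and 56.9 CPM in wild-type cells against 75.7, 86.6 and 80.8 CPM in the clones. It rose by 0.48 log2 units (SE 0.07, adjusted p = 0.00253), with a value of 0.40 (adjusted p = 0.000563) after GC-trend removal. COG1 was at -0.10, COG2 at -0.10, COG7 at 0.08 and COG8 at 0.24, none of them called (adjusted p = 0.132 to 0.496). COG8 was at 19.5, 19.5 and 19.3 CPM in wild-type cells and 19.5, 24.4 and 24.9 CPM in the clones. Here K17 stood at the wild-type level, and without K17 the gene was called higher (0.35, adjusted p = 0.00212). COG1 without K17 was called lower (-0.16, adjusted p = 0.0351). COG8 shares exons with PDF and other genes on its own strand in GENCODE 29, so its counts are uncertain.

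The clones differed among themselves more than the wild-type libraries did. The coefficient of variation of CPM over 3 libraries had a median of 2.85% in the wild type and 7.55% in the clones over the 38 genes, and was larger in the clones for 33 of 38. Over all tested genes the medians were 4.87% and 13.2%, and the clones varied more for 85.9%. K17 lay nearest to the wild-type mean for 28 of 38 genes, or 73.7%, against 51.3% of all tested genes. Among the clones K17 was the highest for 25 genes, whose median GC content was 43.4%, and the lowest for 12 genes, whose median was 54.7%.

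GC content moved with the fold changes. GC content was taken as the median over a gene's GENCODE 29 transcripts, and ranged from 37.4% (USO1) to 62.9% (COPE). The 17 genes that fell had a median of 43.5% and the 20 genes not called a median of 51.9%. Of 25 genes below 50% GC, 16 were called lower, and of 13 genes at or above 50%, 1 was, GOLPH3. Across the 38 genes, which share libraries and are not independent replicates, Pearson's r between GC content and log2 fold change was 0.64 and Spearman's rho 0.56, given as a description. The same trend ran through all tested genes, whose median log2 fold change went from -0.25 at or below 40% GC to 0.55 above 60%. Between 40% and 45% GC, 34.0% of tested genes were called lower, and 7 of 11 of the transport genes. Between 45% and 50% the figures were 24.1% and 7 of 10. At or below 40% they were 40.7% and 2 of 4. In the classes of higher GC they were 17% and 0 of 7 between 50% and 55%, 9.50% and 1 of 4 between 55% and 60%, and 6.88% and 0 of 2 above 60%.

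With a lowess trend on GC content removed from each library, 16 of the 38 genes were called lower and 3 higher, where 22.7% of tested genes with a GC value were called lower and 19.8% higher. Of the 17 genes called lower before, 12 were still called lower, and the calls of ARCN1 (-0.12, adjusted p = 0.101), COG5, GOLPH3 (-0.64, adjusted p = 0.0566), SAR1B (-0.14, adjusted p = 0.0503) and TRIP11 (-0.07, adjusted p = 0.291) ended. Newly called lower were GBF1 (-0.18, adjusted p = 0.0171), GOLGA2, SEC13 (-0.20, adjusted p = 0.0157) and SEC24C (-0.22, adjusted p = 0.0231). Called higher beside COG4 were SAR1A (0.29, adjusted p = 0.00487) and GOLGA1 (0.21, adjusted p = 0.0464). SEC24A (-0.48, adjusted p = 0.000508), SEC24D (-0.45, adjusted p = 0.00701), SEC23A (-0.29, adjusted p = 0.00430), ARF4 (-0.32, adjusted p = 0.000786) and COG6 (-0.36, adjusted p = 0.00180) were closer to 0 but still called, as were COG3 (-0.26, adjusted p = 0.00443), SEC31A (-0.16, adjusted p = 0.0274) and COPB2 (-0.16, adjusted p = 0.0231). A removed trend also takes away any change by CCM3 loss that follows GC content, and these cannot be told apart.

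**Figure D3:**
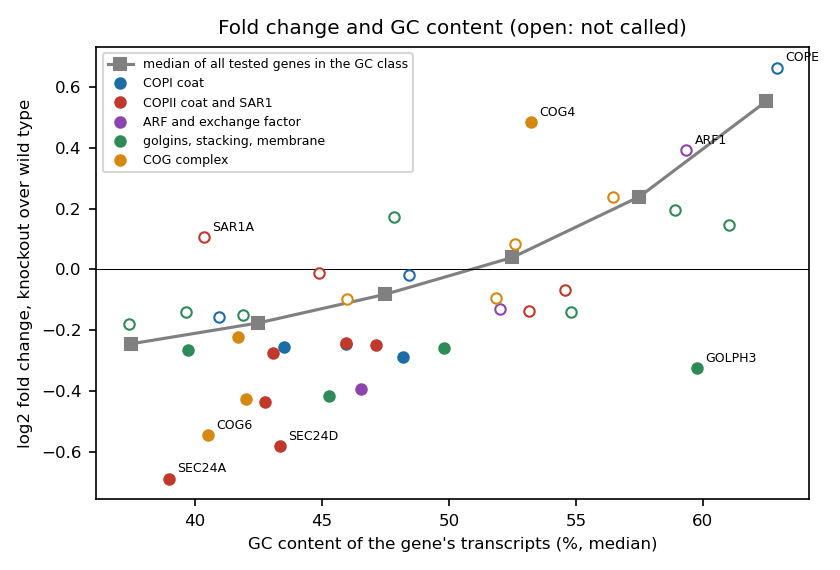
Log2 fold change, knockout over wild type, against GC content of the 38 genes, coloured by role (filled: adjusted p below 0.05). Grey squares are the median fold change of all tested genes in 6 GC classes, from -0.25 at the lowest to 0.55 at the highest; SEC24A, SEC24D, COG6 and GOLPH3 lie below the grey line and COG4 above it.

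Within families of paralogues, and for COPB1 and COPB2, which are different subunits of the COPI coat, the proportions differed between the groups without overlap. Levels were compared per transcript length, from the authors' FPKM, as the share of a gene in the summed FPKM of its family or pair. In the wild type SEC24C (39.9 ± 0.29 FPKM, SD, n = 3) and SEC24D (34.7 ± 1.01) were the abundant SEC24 transcripts, ahead of SEC24B (14.3 ± 0.33) and SEC24A (11.3 ± 0.40). The share of SEC24D was 35.1%, 34.6% and 34.1% in wild-type cells against 30.2%, 25.8% and 29.8% in the clones. That of SEC24A was 11.4%, 11.1% and 11.5%, and then 8.65%, 8.62% and 8.94%. SEC24C took 39.8% ± 0.65 of the family in the wild type and 45.1% ± 2.97 in the clones, and SEC24B 14.3% ± 0.09 and 17.6% ± 0.61 (SD, n = 3).

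Of the 9 shares computed, that of ARF4 had the largest difference. ARF4 made up 54.1%, 53.8% and 56.7% of ARF1 plus ARF4 in wild-type cells against 48.6%, 37.4% and 39.2% in the clones, a mean difference of -13.1 percentage points, to which the uneven ARF1 values above contributed. SAR1A made up 83.4% ± 0.10 of SAR1A plus SAR1B in the wild type and 86.8% ± 0.32 in the clones, and GORASP1 31.3% ± 0.89 and 37.7% ± 2.67 of both GRASP genes. SEC23A made up 70.0% ± 1.37 and 67.2% ± 1.70 of the SEC23 pair, and COPB2 50.2% ± 0.12 and 48.7% ± 0.72 of COPB1 plus COPB2. The shares were not corrected for GC content, which differed between partners. After GC-trend removal GORASP1 (61.0% GC) and GORASP2 (49.8%) were at log2 differences of -0.259 and -0.255. ARF1 (59.4%) and ARF4 (46.5%) were at 0.03 and -0.32, and SAR1A and SAR1B at 0.29 and -0.14. SEC23A and SEC23B were at -0.29 and -0.19, and COPB2 and COPB1 at -0.16 and 0.02. SEC24A, SEC24B, SEC24C and SEC24D were at -0.48, 0.09, -0.22 and -0.45. In all 9 shares the groups did not overlap. The shares of the SEC24 genes are parts of the same total, so they are not separate results. For CPM of single genes the groups did not overlap in 55.5% of all tested genes, and no such background was computed for shares. By an exact permutation test (two-sided) each gave p = 0.1, which is the smallest value that 3 against 3 libraries allow, so none could pass 0.05, and the Benjamini-Hochberg adjusted value over the 9 was also 0.1.

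**Figure D4:**
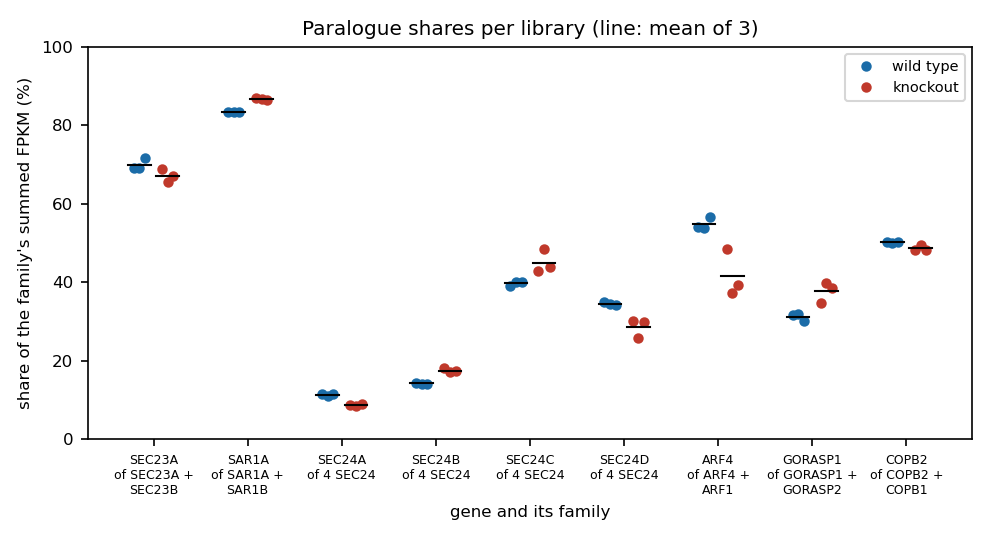
Share of a gene in the summed FPKM of its family, or of COPB1 plus COPB2, in percent. Points are 3 wild-type (blue) and 3 knockout (red) libraries, with the mean as a line. ARF4 averages 54.8% in the wild type and 41.7% in the clones, with K17 the highest clone, and SEC24D averages 34.6% and 28.6%.

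Other genes of the early secretory pathway were examined beside the 38. Of 159 further genes, 154 were tested, and 31 fell, 27 rose and 96 were not called, which is 20.1% and 17.5% and so near the shares over all tested genes. Their median log2 fold change was -0.01. Genes of ER exit sites and cargo receptors went in both directions. YIPF5, an ER-to-Golgi membrane protein, fell from 205.6 ± 5.78 to 72.0 ± 5.55 CPM (mean ± SD, n = 3; adjusted p = 5.26e-05), and the cargo receptor gene LMAN1 from 313 ± 10.3 to 183 ± 12.6 CPM (adjusted p = 0.000402). In the same list ERGIC1 rose from 240.0 ± 5.70 to 400.02 ± 23.2 CPM and SEC16B, a paralogue of the exit-site scaffold SEC16A, from 2.14 ± 0.34 to 7.97 ± 0.20 CPM. The list held 4 decreases and 4 increases among 18 tested genes.

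Retrieval genes, meaning other COPI subunits, further ARF GTPases, ARF GAPs, p24 proteins and KDEL receptors, held 5 decreases and 1 increase among 20. KDELR3, a receptor that returns ER residents, fell by 0.98 and the p24 gene TMED7 by 0.68 on the log2 scale (adjusted p = 0.000929 and 0.00303), while ARF3 rose by 0.21 (adjusted p = 0.0126), a call that ended after GC-trend removal (0.07, adjusted p = 0.551). Golgi Rab GTPases held 5 decreases and 1 increase among 11. RAB18 fell by 0.38 and RAB1A by 0.22, and RAB1B rose by 0.52 (adjusted p = 0.0101, 0.0231 and 0.0293). RAB1A was not called after GC-trend removal (-0.05, adjusted p = 0.338), and RAB18 was at -0.15 (adjusted p = 0.0496). RAB1B, at 152, 217 and 211 CPM in the clones against 125 to 140.1 CPM in wild-type cells, was not called after it either (0.10, adjusted p = 0.162).

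Other golgins, listed together with further Golgi membrane and adaptor genes, held 3 decreases and 1 increase among 14. Of the genes that are not golgins, GOLT1B and ACBD3 were lower by log2 differences of -0.63 and -0.38. GOLM1, also not a golgin, was higher by 0.24, and was not called after GC-trend removal (0.18, adjusted p = 0.0718). Golgi SNARE genes held 2 decreases and 1 increase among 18; SEC22B, a SNARE of ER-to-Golgi vesicles, fell by 0.72 (adjusted p = 0.000394), STX6 fell by 0.20 (not called after GC-trend removal) and STX18 rose by 0.26. Genes of the TRAPP and other tethering complexes were mostly not called, with 1 decrease (NBAS, -0.25, not called after GC-trend removal) and 2 increases (TRAPPC3, 0.33, and TRAPPC2L, 0.43) among 20. Trans-Golgi exchange factors and AP-1 adaptor genes held 0 decreases and 3 increases among 15, AP1G2 (0.76) and AP1S2 (0.46) among them. After GC-trend removal SEC22B was at -0.46, TRAPPC2L at 0.21, AP1G2 at 0.47 and AP1S2 at 0.70, all still called (adjusted p = 0.000226 to 0.0206).

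Glycosylation enzymes and nucleotide-sugar transporters of the Golgi held 6 decreases and 10 increases among 25. GALNT10 fell from 329.9 ± 7.75 to 144 ± 9.98 CPM and GALNT1 from 702 ± 20.7 to 453 ± 59.9 CPM; both start mucin-type O-glycans. The galactosyltransferase gene B4GALT5 rose from 122 ± 3.96 to 230.3 ± 25.7 CPM and the mannosidase gene MAN2A2 from 69.1 ± 1.70 to 92.8 ± 0.61 CPM, a difference of 0.43 that was 0.11 and not called after GC-trend removal (adjusted p = 0.593). Among 8 transcription factor genes known to act on secretory or Golgi and lysosomal genes, 3 fell and 3 rose. TFE3 rose from 56.4 ± 4.77 to 95.4 ± 7.02 CPM (adjusted p = 0.00143) and TFEB from 3.18 ± 0.15 to 6.42 ± 1.59 CPM, while MITF fell from 6.47 ± 0.24 to 1.58 ± 0.34 CPM. A link between any of these factors and the promoter motifs described above was not tested. The log2 differences of TFE3 and TFEB were 0.76 and 1.01, and after GC-trend removal 0.42 and 0.47 (adjusted p = 0.0171 and 0.0360). CREB3L2, known to act on SEC23A in cartilage, fell by 0.29 (adjusted p = 0.00771). Of 5 genes for CCM3, its kinases and the STK25 substrate YWHAZ, 2 fell and 1 rose. The decreases were those of MST4 (-6.78, adjusted p = 3.04e-05) and PDCD10 (-0.71, adjusted p = 0.00374), at -6.56 and -0.52 after GC-trend removal. MST4 was at 0.102 to 0.242 CPM in the clones, where 3 counts amount to 0.101 to 0.106 CPM, so the size of its fall is uncertain. The rise was that of STK25 (0.81, adjusted p = 0.0293), a value of 0.39 after GC-trend removal.

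By the authors' deposited table, 15 of the 38 genes had an adjusted p below 0.05 with a negative and 2 with a positive log2 fold change, and 21 did not pass. The authors' deposited table differed in 3 genes from the calls above, with ARCN1 (adjusted p = 0.0826) and TRIP11 (adjusted p = 0.0561) not passing, and ARF1 (0.39, adjusted p = 0.0368) passing as higher.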

How the data were processed

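Per the labels' protocols, a stranded kit was used to make mRNA libraries from the 6 CI-huVEC samples, 3 of them CCM3 knockouts. STAR and HTSeq and the builds hg19 and GRCh37 are named, with no version, per the submitters' processing notes. No source used here states the annotation, strand setting or filters. The deposited table held whole-number counts per gene symbol and, from the authors, FPKM. A further deposited table held the authors' comparison: a mean normalized signal, log2 fold change with its error, p-value and adjusted p-value, made with a tool that is not stated. Dates stood for symbols in 13 rows (0.175% to 0.196% of counts); they stayed in the totals.

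The 38 genes and all lists were chosen with earlier results of these data known. edgeR 4.0.16 (R 4.3.3; glmQLFit with robust estimation, two-sided quasi-likelihood F test) was fitted to all genes, with TMM factors and filterByExpr (minimum count 10, total 15), which kept 14548 genes. CPM used TMM factors. The SE is the log2 fold change divided by the square root of F. Genes named in the text were set by a rule: all 38, with full values for the called ones and for GOLGA2, GOLPH3, GBF1, ARF1, ARF4, GOLIM4 and the SEC23 and SAR1 genes, and in each pathway list up to 2 called genes a direction with the smallest adjusted p. Values of other members are given beyond that rule. GC content was matched for 38 of 38 genes and 91.3% of tested genes; its trend was a lowess fit (span 0.3). Chromosomes, pseudogene names and promoters came from RefSeq (GRCh38.p14), and overlaps from GENCODE 29. Replicates were compared first: chi-square per degree of freedom was 2.16 to 4.47 between wild-type libraries and 21.0 to 74.4 between clones, so no library was a duplicate. DESeq2 1.42.0, limma 3.58.1 and other settings were alternatives. Exact permutation tests used scipy 1.17.1.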

Additional observations from a re-analysis of the deposited data

How the results depend on the processing

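No gene of the 38 called in the fit above, 17 lower and 1 higher, changed direction in any setting tried. Some genes called only in other settings did, among them GORASP1, GOLGA3, USO1, GOLGA4 and GOLGA5, as given above. The number called lower was 17 with all libraries and 10 with no filter on low counts, 8 at an adjusted p below 0.01, and 8 to 23 with 1 library left out. In the other settings it was 15 to 19. The number called higher was 1, but 2 by DESeq2, 3 with the GC-content trend removed and 1 to 6 with 1 library left out. All genes called numbered 5637, against 2887 below 0.01 and 3020 to 9267 with 1 library left out. Called genes of the further pathway lists numbered 58, and 28 to 109 with 1 library left out. The group differences in share were 3.34 points for SAR1A and -2.59 for SEC24A from FPKM, and 5.25 and -3.51 from raw counts, where gene length is not taken into account; the other 7 shares moved by less than the spread between replicates. With 1 library left out, the ARF4 difference was between -10.9 and -16.6 points. The cause of the other changes was not tested; a stricter threshold leaves fewer calls by construction. No paired analysis was possible because the groups share no replicate number. Each of the 38 genes had at least 559 counts in every library.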
